A study of Mus musculus with 8 samples.

Results

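TRBV13 is a family of 3 variable gene segments of the mouse T cell receptor β (TRB) locus, named TRBV13-1_1, TRBV13-2 and TRBV13-3 in the deposited tables. Its members were all cells without a multiplet mark whose TRB chain used 1 of these segments. They numbered 49338 of 188544 cells with a TRB chain, with 18400 for TRBV13-1_1, 20235 for TRBV13-2 and 10703 for TRBV13-3. The remaining 139206 cells used 21 other TRBV genes. A TRA chain was also read in 18657 of the family's cells (37.8%), and 1660 of these carried the TRAV11-TRAJ18 rearrangement and were set apart. The other 16997 cells made 12932 clonotypes when counted table by table. A clonotype was a TRBV gene with the paired TRA and TRB CDR3 amino acid sequences. Unless stated otherwise, shares are of these cells with both chains and without TRAV11-TRAJ18, called counted cells below.

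The cells had been selected as mouse CD8+ T cells from the thymus, spleen or subcutaneous melanoma and were barcoded in 8 multiplexed sublibraries. The 14 tables came from 7 mice, each with a thymus table. The second table was from spleen in mouse-155A and mouse-155C and from a tumor in 5 others, namely mouse-160A to mouse-160C with mouse-164B and mouse-164C. For these experiments the study bred Pdcd1fl/fl controls on a C57BL/6 background and Pdcd1 cKO mice in which an E8I-driven CD8-Cre deletes the PD-1 gene, with or without B16-OVA or B16-F10 tumors. The labels state neither genotype nor tumor model for any table, and tissue and animal were read from the names of the tables. Tissues are therefore described table by table without a test, and each table holds the cells of 1 tissue of 1 animal, spread over the sublibraries.

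Counted cells numbered 1128 to 13266 per table, with a median of 2 to 5 TRB transcripts per cell. No barcode was shared between tables (0 of 253531). TRB chains were shared, however, as described with the tumor clones below. The CD8+ label rests on the selection of the cells, since CD8 itself was not read. TRAV11-TRAJ18, the invariant chain of natural killer T (NKT) cells, was on 5.90% to 10.9% of the cells with both chains in thymus tables. It was on 0 to 17 such cells in each spleen or tumor table. The thymus tables thus also held NKT-like cells, and whether these carried CD8 was not tested.

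A V segment encodes the first and second complementarity-determining loops (CDR1 and CDR2) of the β-chain and the first residues of the third (CDR3). During recombination it is joined to a D and a J segment at its recombination signal sequence, which consists of a heptamer, a spacer and a nonamer. Bases are trimmed and added at the joints, so the CDR3 is the most variable part of the receptor. In older nomenclature the TRBV13 family is Vβ8, and its members are much used in mouse T cells. TRBV13-2 (Vβ8.2) is the best known β-chain partner of the invariant TRAV11-TRAJ18 chain, which recognises lipids on CD1d.

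The 3 genes lie on the plus strand of chromosome 6 in GRCm39. Trbv13-1 occupies chr6:41092941-41093402, Trbv13-2 chr6:41098330-41098766 and Trbv13-3 chr6:41107081-41107519. Each has 2 exons, with a leader exon of 72, 46 and 46 bases and a V exon of 294 bases in all 3. They are interleaved with the TRBV12 genes. Trbv12-1 lies before Trbv13-1, Trbv12-2 lies between Trbv13-1 and Trbv13-2, and the pseudogene Trbv12-3 lies between Trbv13-2 and Trbv13-3. The V exons are most alike for TRBV13-2 and TRBV13-3, with 24 differences in 294 bases (91.8% identity). TRBV13-1_1 differs from TRBV13-2 at 33 bases (88.8%) and from TRBV13-3 at 41 (86.1%).

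The ends of the segments are shown because they set how each β-chain CDR3 begins. The sequences are from GRCm39, 5′ to 3′ on the plus strand, from the conserved cysteine codon (tgt) to the end of the signal. Capitals mark the heptamer and the nonamer, and the 23-base spacer stands between them.
Trbv13-1 (chr6:41093387-41093441): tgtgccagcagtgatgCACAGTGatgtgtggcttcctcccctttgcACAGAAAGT
Trbv13-2 (chr6:41098751-41098805): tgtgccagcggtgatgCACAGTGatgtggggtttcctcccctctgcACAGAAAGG
Trbv13-3 (chr6:41107504-41107558): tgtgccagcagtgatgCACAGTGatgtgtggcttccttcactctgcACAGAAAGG
The heptamer was CACAGTG in all 3. The 16 coding bases before it were identical in Trbv13-1 and Trbv13-3. Trbv13-2 differed from Trbv13-1 there by A10G alone, counted from 1 at the first base of the cysteine codon, which turns the serine codon agt into the glycine codon ggt.

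The expressed chains differed at the same codon. In counted cells of all tables, 97.0% of TRBV13-2 clonotypes (5211 of 5370) opened their CDR3 with CASG. With TRBV13-1_1, 87.4% (3504 of 4007) opened with CASS, and with TRBV13-3, 82.2% (2921 of 3555) did. CASR came next among the openings counted with both, at 6.49% and 9.76%. TRBV13-2 clonotypes opened with CASS in 2 cases and with CASR in 7. TRBV13-2 clonotypes with TRAV11-TRAJ18 opened with CASG in 97.5% (1084 of 1112).

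The 3 genes could be told apart in the reads. Within the 60 bases before the CDR3, 17 positions differed among the members. Of the annotated chains, 99.99% for TRBV13-1_1 (26460 of 26462), 99.996% for TRBV13-2 (27378 of 27379) and 99.97% for TRBV13-3 (14909 of 14913) were closest to the GRCm39 sequence of the gene the authors had named. The deposited V identity had a median of 100% for each gene.

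In the thymus, TRBV13-2 was the most used member. Its share of distinct clonotypes was lowest at 9.14%, had a median of 9.66% and was highest at 10.7% over the 7 thymus tables. TRBV13-1_1 ranged from 7.09% to 8.33% with a median of 7.62%, and TRBV13-3 from 6.20% to 7.71% with a median of 6.77%. The ranges of TRBV13-2 and the other members did not overlap, whereas those of TRBV13-1_1 and TRBV13-3 did. TRBV13-2 exceeded TRBV13-1_1 by 2.30 ± 0.528 percentage points (SD, n = 7 tables) and in 7 of 7 tables (exact sign-flip permutation test, two-sided, adjusted p = 0.0293). TRBV13-1_1 exceeded TRBV13-3 by 0.605 ± 0.559 points, in 6 of 7 tables, which did not pass the test (exact sign-flip permutation test, adjusted p = 0.0781). These orders were tested after they had been seen. Among all 24 TRBV genes by clonotypes, TRBV13-2 ranked first in 6 of 7 thymus tables and second at worst. TRBV13-1_1 ranked from 2 to 5 there and TRBV13-3 from 2 to 7.

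By cells the thymus values were nearly the same, since few thymic clonotypes held more than 1 cell. TRBV13-2 made up 9.14% to 10.5% of counted cells, TRBV13-1_1 6.99% to 8.51% and TRBV13-3 6.16% to 7.51%. The family made up 23.4% to 26.2%, with the highest value in mouse-155C. In mouse-155A spleen, TRBV13-1_1, TRBV13-2 and TRBV13-3 held 7.66%, 10.7% and 7.30% of counted cells. In mouse-155C spleen they held 7.95%, 12.3% and 6.49%. TRBV13-2 was higher in spleen than in thymus in both mice, by 1.59 and 1.87 points, but the 95% exact binomial intervals of thymus and spleen overlapped for each of the 3 genes. The TRBV13-2 difference was negative in mouse-155A over all cells with a TRB chain (-0.406), and in both mice with TRAV11-TRAJ18 cells counted in (-1.54 and -0.866).

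Tumor tables departed from the thymus, and each in its own way. In mouse-160A tumor, TRBV13-1_1 held 26.0% of counted cells (95% interval 24.0 to 28.1) against 7.44% in its thymus, and TRBV13-2 held 22.6% (20.7 to 24.6) against 9.88%. The family made up 56.7% of that tumor table. In mouse-164B tumor, TRBV13-1_1 held 23.6% (22.5 to 24.7) against 7.67%, and TRBV13-3 was low, at 3.77% (3.30 to 4.29) against 6.61%. In mouse-160C tumor it was TRBV13-3 that was high, at 11.9% (10.9 to 12.97) against 6.76%. In mouse-160B and mouse-164C the family held 25.2% and 20.8% of tumor cells, close to or below the 24.3% and 23.4% of the thymus.

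Over the 5 mice with a tumor, TRBV13-1_1 was higher in tumor than in thymus by cells in 5, with intervals apart in mouse-160A and mouse-164B. TRBV13-2 was higher in 4 and lower in mouse-164C, with intervals apart in all 5. TRBV13-3 was higher in 2 and lower in 3. The intervals take each cell as independent, which cells of 1 clone are not, so intervals apart are no test of a tissue difference. The median tumor minus thymus difference was 1.03, 1.63 and -1.46 points for TRBV13-1_1, TRBV13-2 and TRBV13-3, with ranges of 0.260 to 18.6, -1.39 to 12.7 and -2.84 to 5.13. With TRAV11-TRAJ18 cells counted in, TRBV13-2 was lower in tumor than in thymus in mouse-160B (-2.65 points), mouse-160C (-1.26) and mouse-164B (-0.717) too. Over all cells with a TRB chain, paired or not, TRBV13-1_1 was higher in tumor in 4 mice and lower in mouse-160C (-1.64), TRBV13-2 was higher in 3 and TRBV13-3 in 1. By distinct TRB chains, described below, TRBV13-2 was higher in tumor in 3 mice and lower in 2, with differences of -0.190 to 0.857 points.

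**Figure D1:**
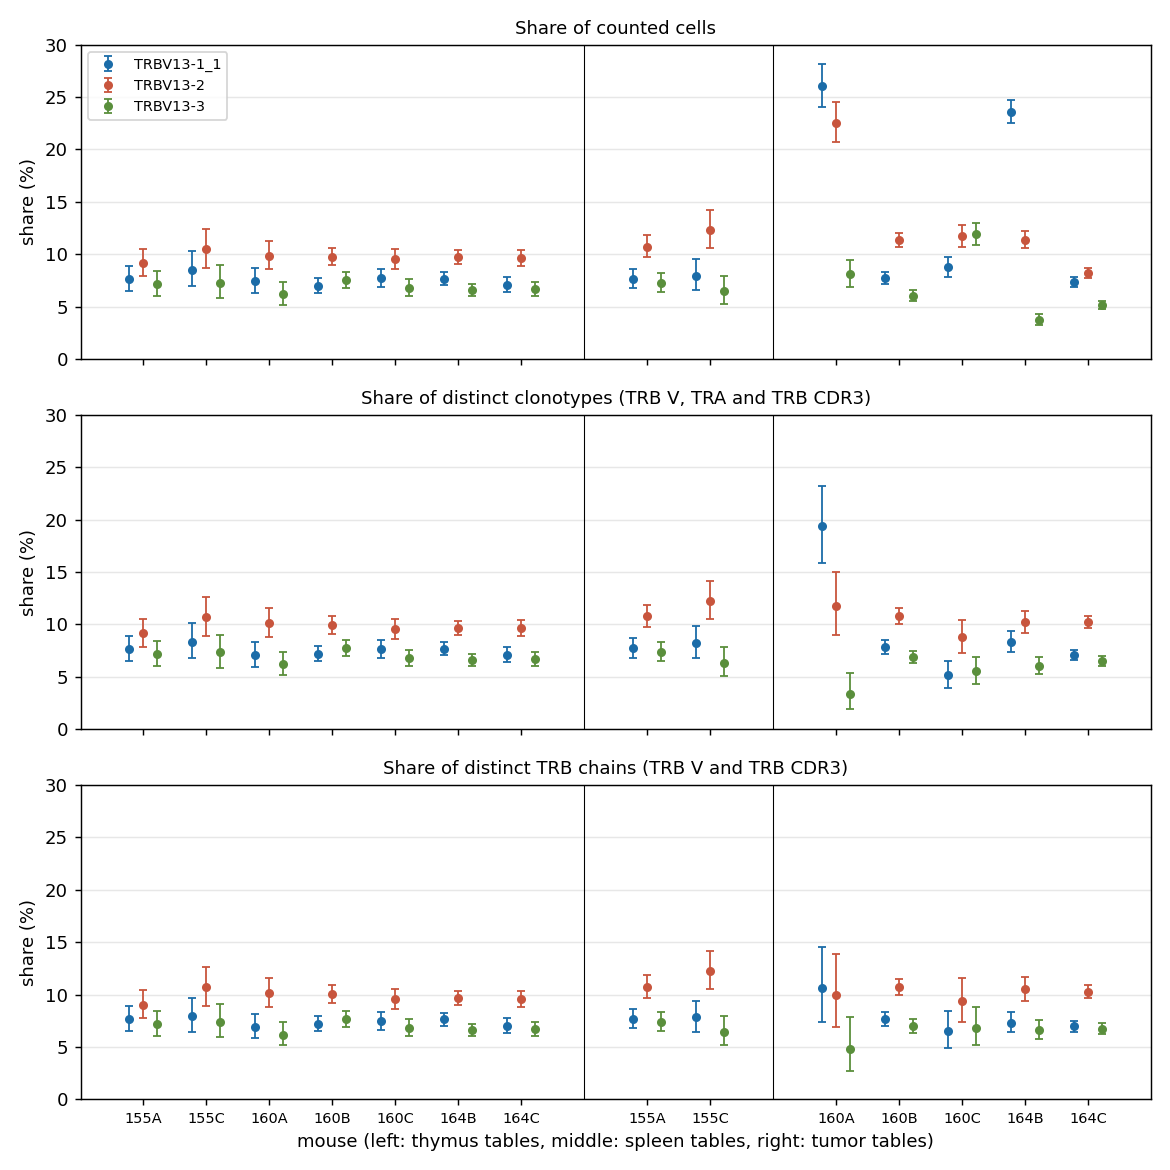
Share of each TRBV13 gene (y axis, percent) in the 14 tables (x axis, mice ordered by tissue), among counted cells (top), distinct clonotypes (middle) and distinct TRB chains (bottom). Points are 1 table each and bars are exact 95% binomial intervals; the tumor points that reach 26.0% by cells reach at most 10.6% by TRB chains.

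Counted by distinct TRB chains (a TRBV gene with its CDR3, each once per table), the differences between tables were much smaller. The family then made up 22.7% to 26.6% of chains in all 14 tables, against 20.8% to 56.7% of cells. In tumor tables TRBV13-1_1 ranged from 6.48% to 10.6% of chains, TRBV13-2 from 9.35% to 10.7% and TRBV13-3 from 4.82% to 6.98%. The corresponding thymus ranges were 6.92% to 7.95%, 9.04% to 10.7% and 6.19% to 7.63%. The TRBV13-1_1 value of mouse-160A tumor was 33 of 311 chains, with an interval of 7.42% to 14.6%. By paired clonotypes that table stood higher, with TRBV13-1_1 at 19.4% (92 of 475), and a single TRBV13 chain was listed there with up to 33 different TRA partners. In the thymus tables no TRBV13 chain had more than 5 partners.

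In 3 of the 5 tumor tables a few large clonotypes held much of the family. TRBV13-1_1 cells of mouse-164B tumor numbered 1388 in 264 clonotypes, and the largest clonotype held 46.6% of them. Its TRB chain was on more, with 1020 of the 1388 cells, split by TRA chain into 13 clonotypes. The largest clonotype held 79.8% of the TRBV13-3 cells of mouse-160C tumor (356 of 446) and 55.01% of the TRBV13-2 cells of mouse-160A tumor (225 of 409). In mouse-164C tumor, by contrast, the largest TRBV13-2 clonotype had 4 cells of 1093, and 96.2% of its TRBV13-2 cells were in clonotypes of 1 cell. TRBV13-3 behaved likewise in that table (4 of 689 cells, 96.7% in clonotypes of 1 cell). Without the most frequent clonotype of each table, the TRBV13-3 value of mouse-160C tumor was 2.65% and its difference from the thymus changed sign, to -4.12 points. In mouse-164B tumor TRBV13-1_1 was then at 14.1%, with the other clonotypes of its leading TRB chain still counted.

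**Figure D2:**
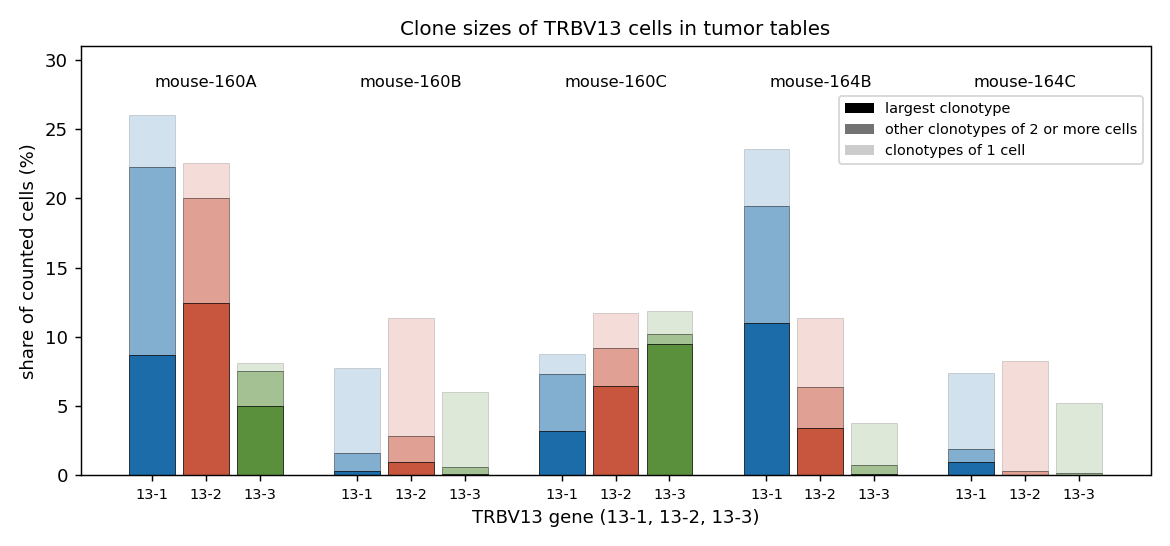
Share of counted cells held by each TRBV13 gene (y axis, percent) in the 5 tumor tables (x axis), split by shade into the largest clonotype, other clonotypes of at least 2 cells and clonotypes of 1 cell. The full height of a bar is the share by cells, and in mouse-160B and mouse-164C most of each bar is clonotypes of 1 cell.

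TRBV13 clonotypes of at least 1% of counted cells were found in 3 tables, with 8 in mouse-160A tumor, 6 in mouse-160C tumor and 4 in mouse-164B tumor. The largest 2 of mouse-164B, with 647 and 361 cells, had the same TRB chain and differed in the TRA chain listed first. The leading TRBV13 clonotypes of mouse-160B and mouse-164C tumors lay just under that level, with 79 cells (0.949%) and 132 cells (0.995%). The CDR3 sequences of the leading TRBV13 chain of each tumor table, with a second one of mouse-160A and of mouse-164B, are shown to compare how much of the germline V end they kept. Capitals mark the bases that match neither the germline V end nor the germline J segment without a break (D bases and added bases).
mouse-160A tumor, TRBV13-2 with TRBJ2-1, 225 cells: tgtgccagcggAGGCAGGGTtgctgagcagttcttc
mouse-160A tumor, TRBV13-1_1 with TRBJ1-3_1, 158 cells: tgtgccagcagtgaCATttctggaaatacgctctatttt
mouse-160B tumor, TRBV13-2 with TRBJ2-4, 79 cells: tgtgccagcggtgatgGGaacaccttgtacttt
mouse-160C tumor, TRBV13-3 with TRBJ2-7, 356 cells: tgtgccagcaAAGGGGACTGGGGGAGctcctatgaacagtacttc
mouse-164B tumor, TRBV13-1_1 with TRBJ2-7, 647 cells: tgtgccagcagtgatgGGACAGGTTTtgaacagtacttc
mouse-164B tumor, TRBV13-2 with TRBJ1-3_1, 201 cells: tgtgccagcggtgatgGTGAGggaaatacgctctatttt
mouse-164C tumor, TRBV13-1_1 with TRBJ1-6, 132 cells: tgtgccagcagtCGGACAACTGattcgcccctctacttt
The chains of mouse-160B and mouse-164B kept all 16 germline V bases, while the TRBV13-3 chain of mouse-160C kept 10 and had the longest middle part of these chains, 16 bases. The sequence was the same in all annotated cells of each clonotype apart from 1 cell of the 647. The annotation was held in part for mouse-164C tumor, where it covered 28 of the 132 cells.

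These clones differed in their α-chains. The leading clonotype of mouse-160A tumor paired TRBV13-2 with TRAV16N_1, and that of mouse-160C tumor paired TRBV13-3 with TRAV14-1. In mouse-164B tumor the chain TRBV13-1_1 with TRBJ2-7 led with 2 α-chains, TRAV3-3_1 listed first in 647 cells and TRAV12-1_1 listed first in 361 cells. Of the 1020 counted cells with this TRB chain, 85.5% listed both TRAV genes, 1 as the first and the other as the second TRA chain. Of the other counted cells there, 20.9% listed any second TRA chain. Whether the 2 clonotypes are 1 clone was not tested. With all its α-chains, this TRB chain held 17.3% of the counted cells of that tumor table.

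The same leading chains were listed at low level in tables of other mice. Among all cells with a TRB chain, the mouse-164B chain had 1324 cells in its own tumor table and 37 to 112 in each of the 12 tables of other mice (661 in all). The leading chains of mouse-160A, mouse-160C and mouse-164C tumors were also in 12 of 12 such tables, and that of mouse-160B in 10 of 12. In other mice, 98.6% of the cells with the mouse-164B chain had 1 TRB transcript and 6.51% had a TRA chain. In the tumor table of mouse-164B 32.1% had 1 transcript and 77.0% had a TRA chain. The other 4 chains showed the same contrast, with 96.4% to 98.9% of cells at 1 transcript in other mice against 23.5% to 35.4% in their own table. Because counted cells need a TRA chain, few of these cells enter the shares. Clonotypes found in several mice had 94 of 16997 counted TRBV13 cells (0.553%) outside the table with most of their cells. That count misses a spread TRB chain listed with another TRA chain. By TRB chain, the mouse-164B chain had 9 counted cells (0.798%) in mouse-155C thymus, in 5 clonotypes, and 8 (0.207%) in mouse-160C thymus. The part of this spread in the shares of cells without a TRA chain was not tested.

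**Figure D3:**
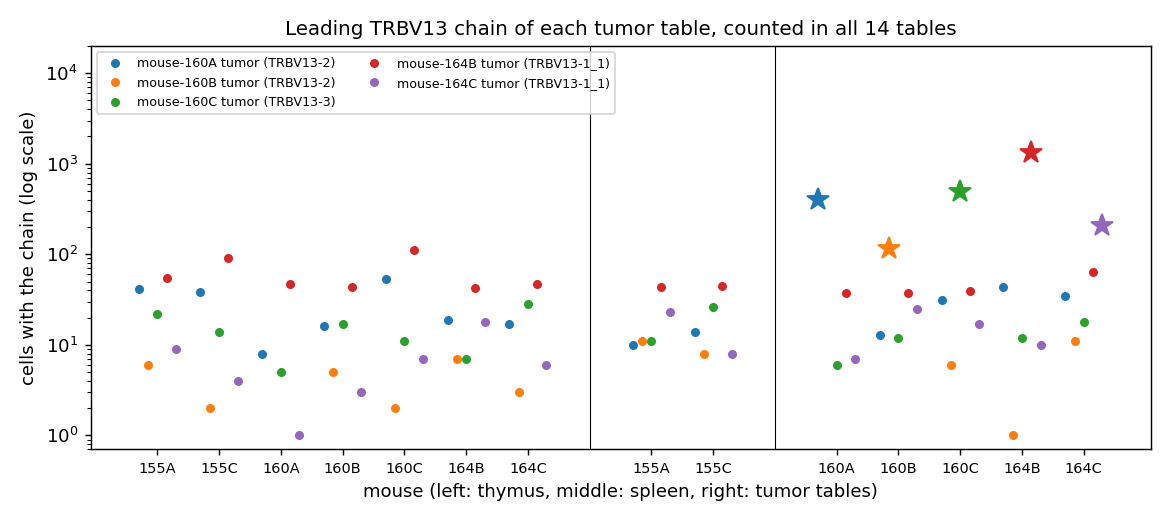
Cells with the leading TRBV13 chain of each tumor table (y axis, log scale) in all 14 tables (x axis), with or without a TRA chain. Stars mark the tumor table in which the chain leads (115 to 1324 cells) and dots the other tables; a table with 0 cells has no point.

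The clones of the tumors were rarely seen in the thymus of the same mouse. Of the tumor clonotypes with TRBV13, 5 or 3.05% (mouse-160A), 5 of 1740 (mouse-160B), 2 of 246 (mouse-160C), 15 of 778 (mouse-164B) and 2 of 2482 (mouse-164C) were in the thymus table. In the spleen tables, 0 of 851 in mouse-155A and 3 of 355 in mouse-155C were. Those of mouse-155C included the clonotype with 361 cells in mouse-164B tumor, which had 4 thymus cells and 1 spleen cell in mouse-155C. For other TRBV genes the tumor counts were 13 of 311, 43 of 5084, 4 of 1021, 55 of 2383 and 9 of 7968. Between different mice, 50 of 12829 TRBV13 clonotypes (0.390%) and 77 of 39908 with other genes (0.193%) were shared. Of the cells of these clonotypes, 94 of 2936 and 110 of 2553 lay outside the table with most of them. The TRBV13 ones included leading tumor clonotypes, such as that of 647 cells in mouse-164B, with 8 cells in 5 other mice. The part of the spread between tables in this sharing was not tested. Over all cells with a TRB chain, the leading TRBV13 chain of each tumor table was on 5 to 42 thymus cells of the same mouse. Each of these shares lay within the range of the tables of other mice. The mouse-164B chain, for example, was on 0.210% in its own thymus table, against 0.179% to 1.41%. All 42 of these cells had 1 transcript, and 1 had a TRA chain. The part of the spread between tables in the counts within a mouse was not tested. Clonotypes with at least 2 cells on both sides numbered 12, of which 7 were in mouse-164B, 3 in mouse-160B and 2 in mouse-160A. The most abundant of them in a tumor paired TRBV13-1_1 and TRBJ2-1 with TRAV14-3 in mouse-164B, with 9 thymus cells (0.126%) and 67 tumor cells (1.14%). A TRBV13-2 clonotype with TRBJ2-1 and TRAV8-1 had 4 thymus cells and 30 tumor cells in the same mouse. A TRBV13-2 clonotype with TRBJ2-5 and TRAV7N-4 ran the other way there, with 13 cells in the thymus and 3 in the tumor.

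Thymus cells with TRAV11-TRAJ18 used the family far more than other thymus cells. TRBV13-2 was on 46.2% of them in mouse-155A (84 of 182 cells) and 43.4% in mouse-155C (49 of 113). The values were 42.9% for mouse-160A (91 of 212), 48.97% for mouse-160B (308 of 629) and 49.2% for mouse-160C (183 of 372). Those of mouse-164B and mouse-164C were 49.9% (223 of 447) and 43.9% (207 of 471). Every one of these values was above the 10.5% that was the highest in other thymus cells. The difference was 36.6 ± 3.18 percentage points (SD, n = 7; exact sign-flip permutation test, two-sided, adjusted p = 0.0293; higher in 7 of 7 tables). The raw p was 0.0156, the smallest that 7 tables allow, and 15 contrasts were adjusted together.

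TRBV13-1_1 was also higher in TRAV11-TRAJ18 cells, at 9.73% to 17.5% against 6.99% to 8.51%. Its difference was 6.07 ± 2.78 points and positive in 7 of 7 tables (exact sign-flip permutation test, adjusted p = 0.0293). TRBV13-3 was at 4.30% to 7.38%, and its difference of -0.929 ± 1.04 points, negative in 6 of 7 tables, did not pass the test (exact sign-flip permutation test, adjusted p = 0.0639). Together the 3 genes were on 59.3% to 70.5% of TRAV11-TRAJ18 thymus cells. TRBV29 and TRBV1, the other known partners of the invariant chain (Vβ7 and Vβ2), were on a median of 11.8% and 9.54%, against 6.56% and 5.15% of other thymus cells. All remaining TRBV genes held a median of 11.6%.

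**Figure D4:**
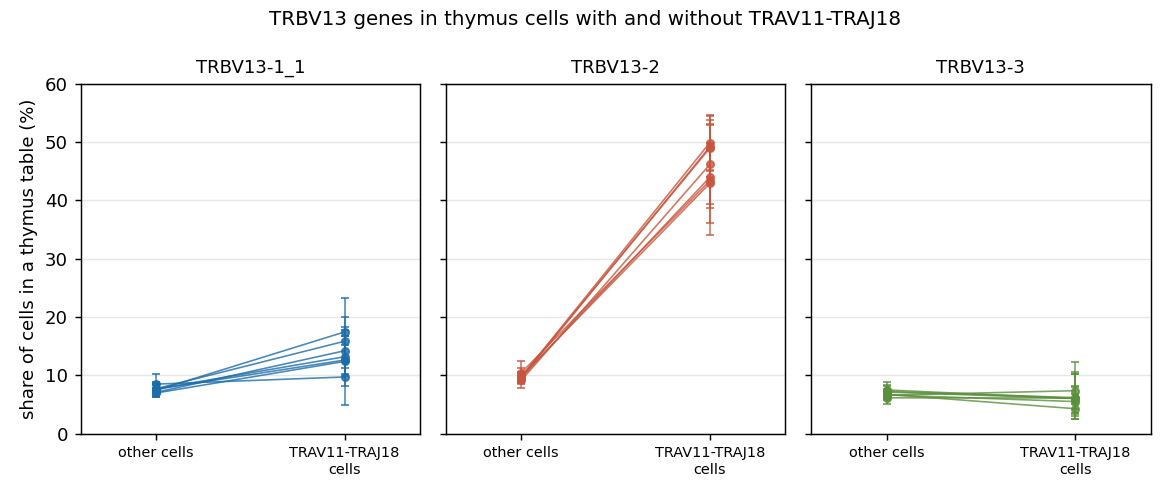
Share of each TRBV13 gene (y axis, percent) among thymus cells without (left point) and with (right point) TRAV11-TRAJ18. Each line is 1 of 7 thymus tables and bars are exact 95% binomial intervals; the lines rise for TRBV13-2 and TRBV13-1_1 in all tables and stay within 4.30% to 7.51% for TRBV13-3.

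Seen from the gene, TRAV11-TRAJ18 was on 24.3% to 38.1% of the thymus cells with both chains that used TRBV13-2. It was on 9.74% to 20.2% of those with TRBV13-1_1, 5.76% to 9.70% of those with TRBV13-3 and 2.38% to 5.24% of those with other TRBV genes. Outside the thymus the numbers were too small to compare, for example 4 of 7 TRAV11-TRAJ18 cells with TRBV13-2 in mouse-155A spleen and 5 of 17 in mouse-164C tumor. In mouse-160A tumor there were 0 TRAV11-TRAJ18 cells among 1812, where 3 counts would make 0.166% and the exact 95% interval reaches 0.203%. TRAV1-TRAJ33, the chain of mucosal-associated invariant T cells, was on 1 cell of the family.

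The β-chains of TRBV13-2 cells with TRAV11-TRAJ18 were diverse. The 1145 such thymus cells made 1071 distinct TRB chains, of which 21 (1.96%) were found in more than 1 mouse and none in more than 2. Among TRBV13-2 chains of other thymus cells, 102 of 2406 (4.24%) were found in more than 1 mouse, and in at most 4. The larger set gives each chain more chances of a match in another mouse, so the 2 percentages are not comparable. The part of the spread between tables in them was not tested. With TRAV11-TRAJ18 the CDR3 had a median of 14.3 amino acids over the thymus tables (13.96 to 14.4). In TRBV13-2 chains of other cells it was 13.99 (13.9 to 14.1). TRBJ2 genes were used by a median of 62.0% (55.4% to 67.8%) against 64.7% (60.2% to 66.0%). The ranges overlapped in both measures.

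The members differed in the length of their CDR3 in the thymus. Over distinct clonotypes, the mean length from the cysteine to the phenylalanine was 13.8 amino acids with TRBV13-1_1, 13.98 with TRBV13-2 and 13.6 with TRBV13-3, against 13.97 with other TRBV genes. TRBV13-3 chains were shorter than those of other genes in 7 of 7 tables, with a mean difference of -0.342 ± 0.170 amino acids (SD, n = 7; exact sign-flip permutation test, adjusted p = 0.0293). The mean difference of TRBV13-1_1 was -0.197 ± 0.0933, negative in 7 of 7 tables (exact sign-flip permutation test, adjusted p = 0.0293), but this call was lost with at least 2 TRB transcripts per cell (-0.156, adjusted p = 0.0938) or without barcodes with a second chain (-0.168, adjusted p = 0.0586). It was also lost without sublibrary 3 (-0.165) or sublibrary 7 (-0.217). TRBV13-2 differed by 0.0154 ± 0.0872, with 3 tables above 0 and 4 below (exact sign-flip permutation test, adjusted p = 0.672).

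The V end kept in the CDR3 followed the same order. Up to the first mismatch, distinct CDR3 sequences of the thymus tables matched 14.03 ± 0.136 of the 16 germline V bases with TRBV13-2, 13.8 ± 0.179 with TRBV13-1_1 and 13.2 ± 0.199 with TRBV13-3 (mean ± SD of 7 tables). All 16 bases were kept in a median of 30.8%, 28.6% and 15.9% of sequences. The highest TRBV13-3 table mean, 13.4, lay below the lowest of TRBV13-1_1, 13.6, although the 16 germline bases of these genes are identical. These values were not tested, and a base added at the joint that equals the germline base counts as kept.

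J segments are grouped into the TRBJ1 and TRBJ2 clusters, each behind its own D segment and constant gene. TRBJ2 genes were used by 59.7% of TRBV13-1_1 clonotypes, 64.1% of TRBV13-2 and 59.5% of TRBV13-3 in the thymus, and by 63.1% with other TRBV genes (means of 7 tables). The differences from other genes were -3.35 ± 4.63, 0.985 ± 2.21 and -3.56 ± 3.20 points. None of the 3 passed the test (exact sign-flip permutation test, adjusted p = 0.108, 0.318 and 0.0639), with values below 0 in 5, 1 and 6 of 7 tables. TRBJ2-7 was the most frequent J gene with every member, at a median of 18.9%, 18.6% and 16.8% over thymus tables, and TRBJ1-1 the next, at 14.9%, 11.9% and 13.04%. After these came TRBJ2-1 with TRBV13-1_1 (10.6%) and TRBV13-3 (11.3%), and TRBJ2-5 with TRBV13-2 (11.3%). The α-chain partners were alike. TRAV12-1, TRAV3-1 and TRAV14D-1 were the 3 most frequent with each member, and also with other TRBV genes. TRAV12-1, for example, had a median of 9.46%, 8.94% and 8.40% with TRBV13-1_1, TRBV13-2 and TRBV13-3 and 8.67% with other genes.

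**Figure D5:**
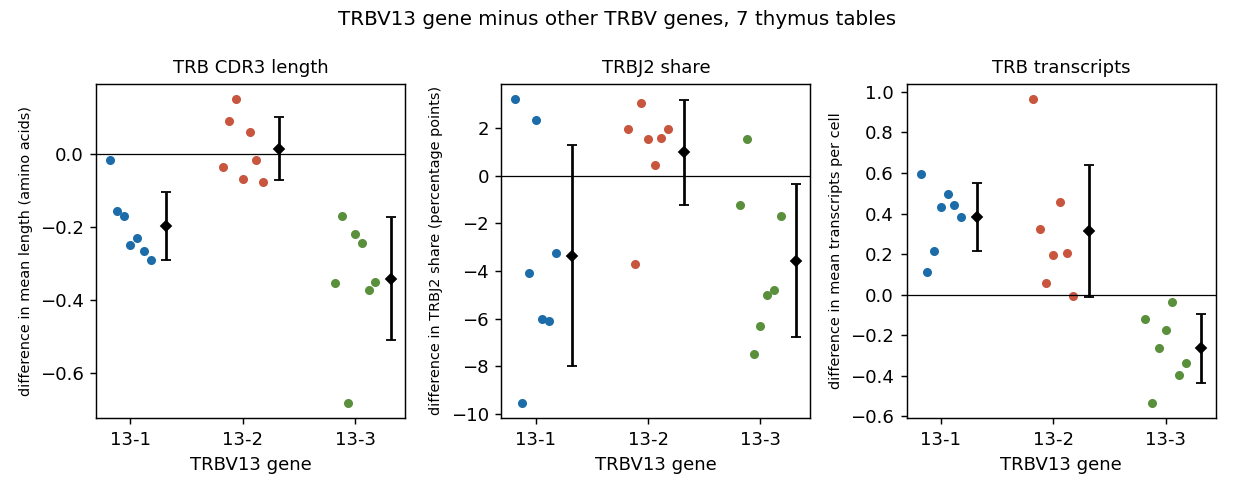
Each TRBV13 gene minus other TRBV genes in mean TRB CDR3 length (left, amino acids), share of TRBJ2 (middle, percentage points) and mean TRB transcripts per cell (right). Dots are the 7 thymus tables, diamonds and bars their mean and SD; every TRBV13-3 dot lies below 0 for length and for transcripts.

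Thymus cells also differed in the number of TRB transcripts read, which is both a depth and an expression measure. Cells with TRBV13-1_1 had a mean of 4.24 transcripts, against 3.86 in cells with other TRBV genes. The difference was 0.382 ± 0.166, above 0 in 7 of 7 tables (SD, n = 7; exact sign-flip permutation test, adjusted p = 0.0293). Cells with TRBV13-3 had 3.59, a difference of -0.265 ± 0.172, below 0 in 7 of 7 tables (exact sign-flip permutation test, adjusted p = 0.0293). On the log2 scale that difference was close to 0 (-0.00448, adjusted p = 0.859). The call of TRBV13-1_1 was lost without sublibrary 3 (0.368) or 8 (0.418), and that of TRBV13-3 without sublibrary 5 (-0.221), 7 (-0.220) or 8 (-0.273). TRBV13-2 cells had 4.17, a difference of 0.314 ± 0.326, above 0 in 6 of 7 tables (exact sign-flip permutation test, adjusted p = 0.0521), which passed without sublibrary 1, 4, 5 or 7 (0.348, 0.271, 0.363 and 0.336). The shares differed when cells without a TRA chain were included. Over all cells with a TRB chain and no TRAV11-TRAJ18, paired or not, TRBV13-1_1 had a median of 8.86% in thymus tables and TRBV13-3 5.69%, against 7.62% and 6.76% of counted cells. A TRA chain was read in a median of 31.7% of TRBV13-1_1, 38.2% of TRBV13-2, 39.5% of TRBV13-3 and 33.1% of other TRB cells over the 14 tables.

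Transcript numbers differed between genes in some tumor tables more than in others. In mouse-160A tumor, cells had a mean of 8.94 TRB transcripts with TRBV13-1_1, 9.92 with TRBV13-2 and 6.17 with TRBV13-3, against 4.99 with other genes. In mouse-164C tumor, TRBV13-1_1 cells, which held its leading TRBV13 clonotype, had 4.58 and TRBV13-2 and TRBV13-3 cells 2.57 and 2.47, against 3.48 with other genes. Mouse-160B tumor had 4.61, 4.49, 3.52 and 3.98 in the same order, near its thymus values of 4.56, 4.32, 3.95 and 4.12. In the spleen tables all means lay between 2.29 and 2.75.

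Across the 14 tables, the genes most like each member were sought among 16 others with a median share of at least 1%, by Pearson's r of log2 share of clonotypes. For TRBV13-1_1 these were TRBV26 (r = 0.58) and TRBV16 (r = 0.50), and for TRBV13-2 TRBV29 (r = 0.54) and TRBV16 (r = 0.44). For TRBV13-3 they were TRBV17 (r = 0.87) and TRBV15 (r = 0.74). The 14 tables share mice in pairs and differ in depth. Over the 7 thymus tables alone r was -0.14 for TRBV26 and -0.16 for TRBV16 with TRBV13-1_1, 0.50 for TRBV29 and -0.80 for TRBV16 with TRBV13-2, and 0.51 for TRBV17 and -0.70 for TRBV15 with TRBV13-3. Likeness over all tables thus held in sign within the thymus for TRBV29 and TRBV17 and turned for the other 4 pairs. The 7 thymus tables are among the 14 by which these genes were picked, so a kept sign is no independent check. Among the members themselves, r was 0.65 for TRBV13-1_1 with TRBV13-2, -0.72 for TRBV13-1_1 with TRBV13-3 and -0.32 for TRBV13-2 with TRBV13-3. Within the thymus tables the same pairs had r of 0.32, 0.33 and 0.14, so that both negative values turned positive.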

How the data were processed

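Libraries were made with the Parse Evercode TCR kit from thymus and spleen cells selected with a CD8a+ isolation kit and from digested tumors enriched with CD8 (TIL) microbeads. The authors assembled and annotated the chains with the Parse pipeline. The submitters' processing notes name GRCm39, while the pipeline's version and its reference for V(D)J segments are not given in the sources. The deposited barcode tables give transcript counts per chain and a multiplet mark, the deposited clonotype tables counts of cells, and the deposited annotation tables nucleotide sequences and V identity in percent. Clonotype sizes rebuilt from unmarked barcodes with both chains matched the deposited ones in all 55460 entries. Annotation was held in part for the thymus tables of mouse-160B and mouse-164B and the tumor table of mouse-164C.

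Barcodes with a multiplet mark were left out, so doublets were treated as the authors marked them. Shares carry exact (Clopper-Pearson) 95% intervals. Intervals, and the share that 3 counts would make where 0 were found, cover counting error only. Intervals by cells take the cells of a clone as independent. The 8 deposited samples are sublibraries with no group in the labels. Contrasts within thymus tables used an exact two-sided sign-flip permutation test over 7 tables, with Benjamini-Hochberg adjustment over 15 contrasts (13 planned, 2 added after the values were seen) and a threshold of 0.05. Germline sequences came from GRCm39 with GENCODE M39. The genes shown were the 3 members, TRBV29 and TRBV1, the 2 most correlated TRBV genes, the 3 leading TRBJ and TRAV partners, leading clonotypes of at least 3 cells or 1% of a table, and clonotypes of at least 2 cells in both tissues. Of the clonotypes the rule named, those described are the leading ones. Members and lists were chosen with earlier results of these data known. Alternatives changed the cells counted, the unit, the multiplet and second-chain rules and the sublibraries. Scripts used Python 3.11.15, pandas 2.3.3 and SciPy 1.17.1 and were tested on simulated data.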

Additional observations from a re-analysis of the deposited data

Results flagged for a closer look

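Among the 5 tumor tables, 4 values of mouse-160A stood far from the other tables. They were TRBV13-1_1 at 19.4% of distinct clonotypes and 10.6% of distinct TRB chains, TRBV13-2 at 22.6% of counted cells, and TRBV13-3 at 4.82% of distinct TRB chains. This table is the smallest tumor table, with 1812 counted cells, 475 clonotypes and 311 chains. Among the 7 thymus tables, mouse-155C stood apart in the family's share of counted cells (26.2%) and in the TRBJ2 difference of TRBV13-2 (-3.71 percentage points). It is the shallowest table, with 1128 counted cells. The CDR3 length difference of TRBV13-3 in mouse-160A thymus was -0.683 amino acids, farthest from 0. Dixon's test was run on 37 groups and marked 7, and chance marks about 1 in 20 groups.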

How the results depend on the processing

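Of 529 values of medians and contrasts recomputed under the alternatives, 490 were counted as unchanged, as were 2074 of 2324 values of single tables. For contrasts, unchanged meant the same direction and the same side of the threshold, with no rule on size. For medians, it meant a shift within their SD over tables. Among the contrasts of TRAV11-TRAJ18 cells, no call changed. The CDR3 length call of TRBV13-1_1 was lost with at least 2 TRB transcripts per cell (-0.156) and without barcodes that had a second TRA or TRB chain (-0.168), and the values without 1 sublibrary each ran from -0.225 to -0.165. For TRBV13-2 the length difference ran from -0.00608 to 0.0270 in the same way and changed sign without sublibrary 7. In TRB transcripts per cell, TRBV13-1_1 ran from 0.329 to 0.464. TRBV13-2 ran from 0.241 to 0.373 and passed without barcodes with more than 1 chain (0.399), without clonotypes of several animals (0.309) and with multiplets kept (0.459). TRBV13-3 ran from -0.338 to -0.220 and did not pass without barcodes with more than 1 chain (-0.169) or as a mean of log2 transcripts (-0.00448), the latter chosen after seeing the data. The TRBJ2 difference of TRBV13-3 ran from -4.33 to -2.41 and passed without clonotypes of several animals (-3.72), with each cell counted (-3.47) and without sublibrary 4 (-3.14). TRBV13-1_1 minus TRBV13-3 by clonotypes ran from 0.416 to 0.751 and passed with multiplets kept (0.792) and without sublibrary 1 (0.721). The cause of these changes was not tested.

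With TRAV11-TRAJ18 cells counted, thymus medians were 27.7% of cells and 27.4% of clonotypes for the family and 13.0005% and 12.8% respectively for TRBV13-2, by construction. Over all cells with a TRB chain, medians by cells were 24.99% for the family, 8.86% for TRBV13-1_1, 10.3% for TRBV13-2 and 5.69% for TRBV13-3, and by clonotypes 10.2% for TRBV13-2 and 5.95% for TRBV13-3. With at least 2 TRB transcripts the family was at 25.3% of cells and 25.3% of clonotypes. Weighted by transcripts, TRBV13-1_1, TRBV13-2 and TRBV13-3 were at 8.48%, 10.2% and 6.12%.

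Among tumor minus thymus differences by cells whose intervals were apart, 12 of 255 recomputed values changed sign. Without clonotypes found in more than 1 animal, a setting that also removes leading tumor clonotypes, they were -0.738 (family, mouse-160C), -2.36 (family, mouse-164B), -0.685 (TRBV13-1_1, mouse-164B), -2.17 (TRBV13-2, mouse-160A), 0.0749 (TRBV13-2, mouse-164C) and -3.64 (TRBV13-3, mouse-160C). With TRAV11-TRAJ18 cells counted, the TRBV13-2 differences of mouse-160B, of mouse-160C and then of mouse-164B were -2.65, -1.26 and -0.717. Over all cells with a TRB chain, mouse-160C was at -1.50 for the family and -0.394 for TRBV13-2. Without the most frequent clonotype of each table, TRBV13-3 was at -4.12 in mouse-160C. Leaving out only the cells of clonotypes with most cells in another table, also chosen after seeing the data, changed 0 of 160 values. That setting keeps cells in which a spread TRB chain is listed with another TRA chain. Where the intervals overlapped, 7 of 85 tumor values and 28 of 136 spleen values changed sign. Over all cells with a TRB chain these included TRBV13-1_1 in mouse-160C (-1.64), TRBV13-3 in mouse-160A (-0.536) and TRBV13-2 in the spleen of mouse-155A (-0.406). Tissues were paired within each mouse throughout, and the contrasts within each table. Each tissue of a mouse is 1 table, so the intervals of tissue differences cover counting error only, and the shallowest thymus table had 1128 counted cells.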
